A study of Mus musculus with 9 samples.

Results

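The EGF receptor family and its EGF-like ligands were read here as 6 mouse genes taken by name: the receptors Egfr, Erbb2 and Erbb3 and the ligands Areg (amphiregulin), Ereg (epiregulin) and Btc (betacellulin). Every probe set annotated to one of these genes was taken, which gave 13 of the 45101 probe sets on the array: 7 for Egfr, 1 for Erbb2, 2 for Erbb3, 2 for Btc and 1 for Ereg. No probe set was paired with Areg in the annotation used, so Areg was not analysed here. A gene was represented by its brightest probe set, and 5 of the 18194 genes so defined belonged to the family set. Of these 5, Egfr, Erbb2, Erbb3 and Btc passed the filter on dim signals and were tested among 13447 genes, whereas Ereg did not pass.

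Cumulus cells are granulosa cells packed around an oocyte, and their transcripts were measured on Affymetrix mouse genome arrays, which carry several oligonucleotide probe sets per gene, in 3 genotypes with 3 independent samples each. DM (double mutant) females were Bmp15-/-Gdf9+/-, that is, they lacked Bmp15 and kept 1 intact copy of Gdf9. Bmp15-/- females lacked Bmp15 with both copies of Gdf9 intact, and wildtype females carried neither mutation. BMP15 and GDF9 are growth factors of the TGF-beta family that the oocyte secretes, so both mutant groups share the Bmp15 deletion and differ in Gdf9 dose. All females were on a mixed B6/129 background, were 4 to 5 months old and had received 5 IU eCG (PMSG), a gonadotropin that drives follicle growth, 48 h before collection; no ovulatory hormone appears in the protocol. Each sample pooled 75 to 100 complexes of large antral follicles from 3 or 4 mice, stripped of their oocytes in medium with 5 µM milrinone, a phosphodiesterase inhibitor, and 10 ng of RNA went through a labelling with repeated amplification rounds. A pool averages over its animals, and in a pool fewer cells of a type and less RNA per cell cannot be told apart.

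EGF-like ligands are made as membrane-bound precursors, cut free by proteases such as ADAM17, and bind ErbB receptors, which pair and phosphorylate each other to activate the RAS-ERK and PI3K-AKT cascades. ERBB2 has no known soluble ligand and serves as a partner, while ERBB3 binds neuregulins and signals mainly through its partners because its own kinase is weak. In the preovulatory follicle, luteinizing hormone acts on mural granulosa cells, which release amphiregulin, epiregulin and betacellulin, and EGFR on cumulus cells receives them and drives cumulus expansion and resumption of meiosis. The comparisons asked what the cumulus cells of each mutant expressed of this receiving machinery before that signal.

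Values are log2 signals as the authors normalised them, so a difference of 1 is a doubling of signal, and the level of one probe set cannot be set against that of another. Differences were tested in 1 limma model over all 9 arrays with Benjamini-Hochberg adjustment over the 13447 genes, and a gene was called at an adjusted p below 0.05. Array medians lay between 5.52 and 5.59, and arrays of 1 genotype correlated at 0.988 or higher across probe sets. The deleted gene was read by 1420006_at, which gave 5.05 to 5.10 on the 6 mutant arrays, against 5.10, 9.58 and 8.41 on wildtype arrays 1, 2 and 3. Bmp15 is an oocyte transcript, so wildtype array 1 was at the mutant level there, and results that rest on this array are also given without it. Gdf9, another oocyte transcript, gave 4.67, 5.30 and 5.63 in DM, 5.70, 6.59 and 4.99 in Bmp15-/-, and 5.03, 8.12 and 6.56 in wildtype samples, with overlapping genotypes. Of 10 cumulus markers, 10 were above the 40th percentile of their array on every array, and their summed linear signal was 20700 to 26717 in DM, 27811 to 28655 in Bmp15-/- and 29991 to 30769 in wildtype cells. The summed signal of 6 mural granulosa markers was 2209 to 3671 in DM, 4183 to 4302 in Bmp15-/- and 5028 to 5403 in wildtype cells, and that of 19 oocyte markers was 813 to 1123 in DM, 915 to 2366 in Bmp15-/- and 1030 to 2601 in wildtype cells. For 8 theca and stroma markers the sums were 789 to 1030 in DM, 666 to 726 in Bmp15-/- and 522 to 627 in wildtype cells, and for 8 surface epithelium markers 1051 to 1076 in DM, 942 to 1173 in Bmp15-/- and 728 to 788 in wildtype cells. Of 5 endothelial markers 1 was above the 40th percentile on each array, of 7 immune markers 2 or 3, and of 2 erythroid markers 0 or 1. The erythroid sum was 46 to 58 in DM, 51 to 97 in Bmp15-/- and 170 to 298 in wildtype cells. Its tested marker Alas2 was called lower in both mutants, by -2.59 in DM (limma adjusted p = 0.000553) and -1.98 in Bmp15-/- (limma adjusted p = 0.00746). The other marker, Hba-a1, was under the 40th percentile on every array. Its means were 4.10 in DM, 4.15 in Bmp15-/- and 3.90 in wildtype cells, so the higher wildtype sum came from Alas2 alone. The Gapdh 3′ minus 5′ difference, a sign of RNA integrity and labelling, was 0.79 to 0.95 in DM, 0.66 to 0.73 in Bmp15-/- and 0.52 to 0.59 in wildtype samples. The same difference for beta-actin overlapped between genotypes, at 1.85 to 2.12 in DM, 1.85 to 1.92 in Bmp15-/- and 1.87 to 1.90 in wildtype samples. The cumulus, mural and theca sums and the Gapdh difference each stood in 3 tiers by genotype, but the brightest markers weigh most in a sum, and the median log2 signal of each of these lists overlapped between genotypes in at least 1 pair. The theca median was 4.84 to 5.08 in DM, 4.94 to 5.04 in Bmp15-/- and 4.80 to 5.16 in wildtype cells. The cumulus median was 9.68 to 10.11 in DM, 9.87 to 9.97 in Bmp15-/- and 10.15 to 10.26 in wildtype cells. Its wildtype range thus lay above both mutant ranges, and only the mutants overlapped. Markers of 1 list also moved in opposite directions in DM against wildtype cells: Pdgfra at 1.57 and Pdgfrb at -0.37 of the theca list, and Cd34 at 1.27 and Inhba at -0.89 of the mural list. In the cumulus list, whose sum was lower, Amhr2 changed by 0.72 and Slc38a3 by 1.24. Of the 10 cumulus markers tested, 4 were called lower and 2 higher in DM against wildtype cells, with a median change of -0.38. Of all genes tested, 18.2% were called lower and 9.95% higher in that comparison. The part of these measures in the results below was not tested.

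In DM cells, 2 of the 4 tested family genes changed against wildtype: Egfr was 4.72-fold lower and Erbb3 1.82-fold higher, beside 28.1% of all genes called in that comparison (9.95% higher and 18.2% lower). In Bmp15-/- cells 1 of the 4 changed against wildtype, Egfr at 1.81-fold lower, beside 9.07% of all genes (3.29% higher and 5.78% lower). Between DM and Bmp15-/- cells 1 of the 4 changed, again Egfr, 2.61-fold lower in DM, beside 3.25% of all genes (1.64% higher and 1.61% lower). The median log2 change of the 4 genes was -0.18 in DM against wildtype and -0.23 in Bmp15-/- against wildtype, where all tested genes had medians of -0.06 and -0.04. Of all called genes, 64.6% were lower in DM and 63.7% in Bmp15-/- against wildtype, and after a further quantile normalization 51.7% and 46.8%.

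**Figure D1:**
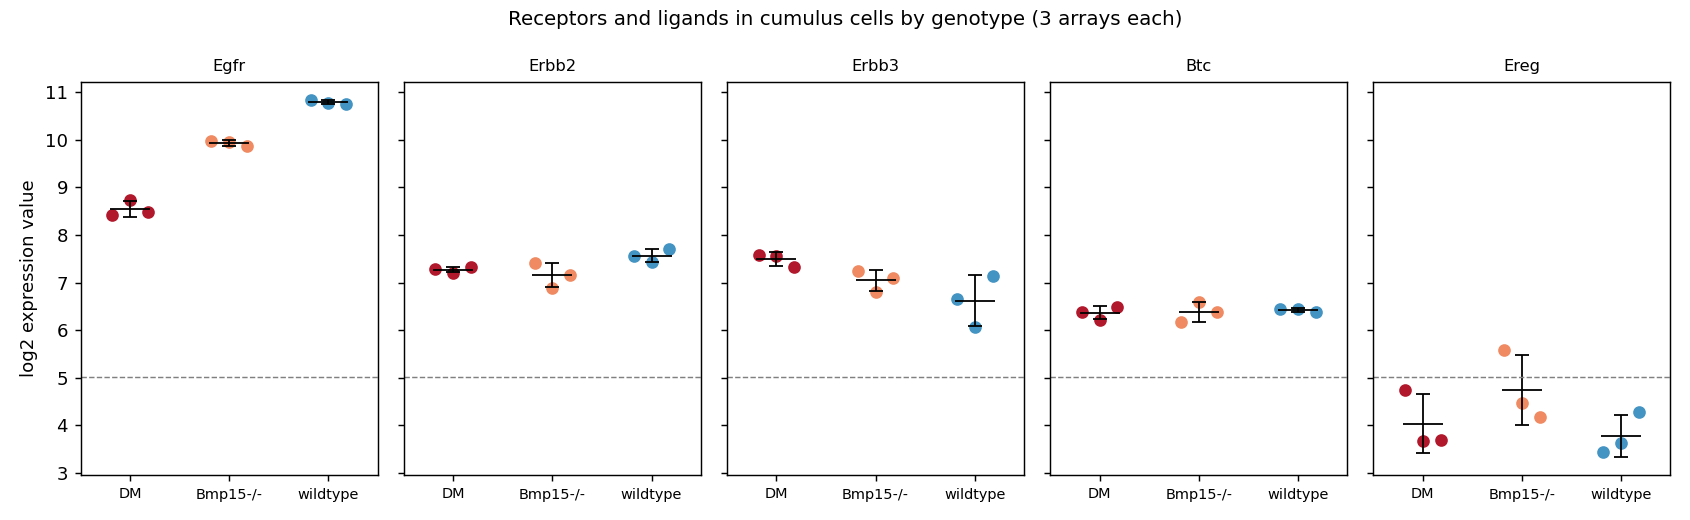
Log2 signal of the brightest probe set of each family gene on the 9 arrays, with DM at the left, Bmp15-/- in the middle and wildtype at the right of each panel; points are samples, bars are mean ± SD (n = 3), and the grey dashed line is the mean over arrays of the 40th percentile. The Egfr points form 3 separate tiers around 8.55, 9.93 and 10.79, the Btc points overlap between genotypes, and most Ereg points lie under the dashed line.

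Egfr encodes the receptor through which cumulus cells receive amphiregulin, epiregulin and betacellulin. Its brightest probe set, 1424932_at, differed in level between the 3 genotypes. Its log2 signal was 8.43, 8.74 and 8.49 in the 3 DM samples, 9.99, 9.95 and 9.86 in the Bmp15-/- samples, and 10.84, 10.78 and 10.76 in the wildtype samples. The 3 genotypes did not overlap, with DM arrays lowest and wildtype arrays highest. The group means were 8.55 ± 0.16 in DM, 9.93 ± 0.06 in Bmp15-/- and 10.79 ± 0.04 in wildtype cells (SD, n = 3 each). DM cells were lower than wildtype cells by a log2 change of -2.24 ± 0.097 (SE; 95% interval -2.46 to -2.02; limma adjusted p = 3.64e-06), and Bmp15-/- cells by -0.86 ± 0.097 (interval -1.07 to -0.64; limma adjusted p = 0.00159). DM cells were also lower than Bmp15-/- cells, by -1.38 (interval -1.60 to -1.17; limma adjusted p = 0.000763).

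Among the 13447 genes, Egfr had the smallest p, rank 1, in both comparisons that involve DM cells, while its fall was the 32nd in size against wildtype and the 16th in size against Bmp15-/-. In Bmp15-/- against wildtype cells it held rank 59 by p and its fall rank 235 in size. Without wildtype array 1 the change was -2.22 in DM (limma adjusted p = 5.80e-05) and -0.83 in Bmp15-/- cells (limma adjusted p = 0.00977).

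The 7 Egfr probe sets did not all follow this pattern. On 1435888_at the signal was 6.98, 7.47 and 7.46 in DM, 8.06, 8.09 and 8.17 in Bmp15-/-, and 8.89, 9.22 and 8.95 in wildtype cells. These 3 ranges were again apart, and in a fit of all 27991 probe sets above the filter the change was -1.72 ± 0.15 in DM (limma adjusted p = 0.000186) and -0.92 in Bmp15-/- (limma adjusted p = 0.0105) against wildtype, and -0.80 (limma adjusted p = 0.0341) between the mutants. Probe set 1460420_a_at gave 6.15, 6.38 and 6.10 in DM, 6.63, 6.54 and 6.39 in Bmp15-/-, and 7.15, 6.91 and 6.79 in wildtype cells. Here each mutant range lay below the wildtype range, the highest DM value of 6.38 almost met the lowest Bmp15-/- value of 6.39, and the change passed the test in DM against wildtype (-0.74 ± 0.12, limma adjusted p = 0.00354) but not in Bmp15-/- against wildtype (-0.43, limma adjusted p = 0.0727).

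A pair of dimmer probe sets, 1454313_at and 1432647_at, which the annotation traces to a single source sequence, showed no called change. The first read 6.08, 6.18 and 5.48 in DM, 6.33, 6.08 and 5.91 in Bmp15-/-, and 6.13, 6.13 and 5.94 in wildtype cells, with overlapping genotypes and a DM against wildtype change of -0.16 (limma adjusted p = 0.580). The other read 5.44, 5.07 and 5.14 in DM, 5.61, 5.38 and 5.43 in Bmp15-/-, and 5.38, 5.28 and 5.30 in wildtype cells, with a change of -0.10 (limma adjusted p = 0.544). In Bmp15-/- against wildtype cells both leaned the other way, at 0.04 and 0.15, without passing the test (limma adjusted p = 0.925 and 0.451).

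The last pair of Egfr probe sets was under the filter and was not tested. Probe set 1451530_at, which shares its source sequence with 1424932_at, read 3.79, 3.93 and 3.84 in DM, 4.09, 3.94 and 3.94 in Bmp15-/-, and 4.80, 4.37 and 4.73 in wildtype cells, so its wildtype arrays were highest. Probe set 1457563_at stayed between 3.62 and 4.03 on all 9 arrays. Thus 3 of the 5 tested Egfr probe sets were called lower in DM against wildtype, where 16.2% of probe sets were called lower, 2 of 5 in Bmp15-/- against wildtype, where 4.28% were, and 2 of 5 in DM against Bmp15-/-, where 0.922% were. Averaging all 7 probe sets reduced the Egfr change to -0.84 in DM (limma adjusted p = 0.00014) and -0.40 in Bmp15-/- (limma adjusted p = 0.0193) against wildtype, and to -0.44 between the mutants (limma adjusted p = 0.0239), with each call kept.

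**Figure D2:**
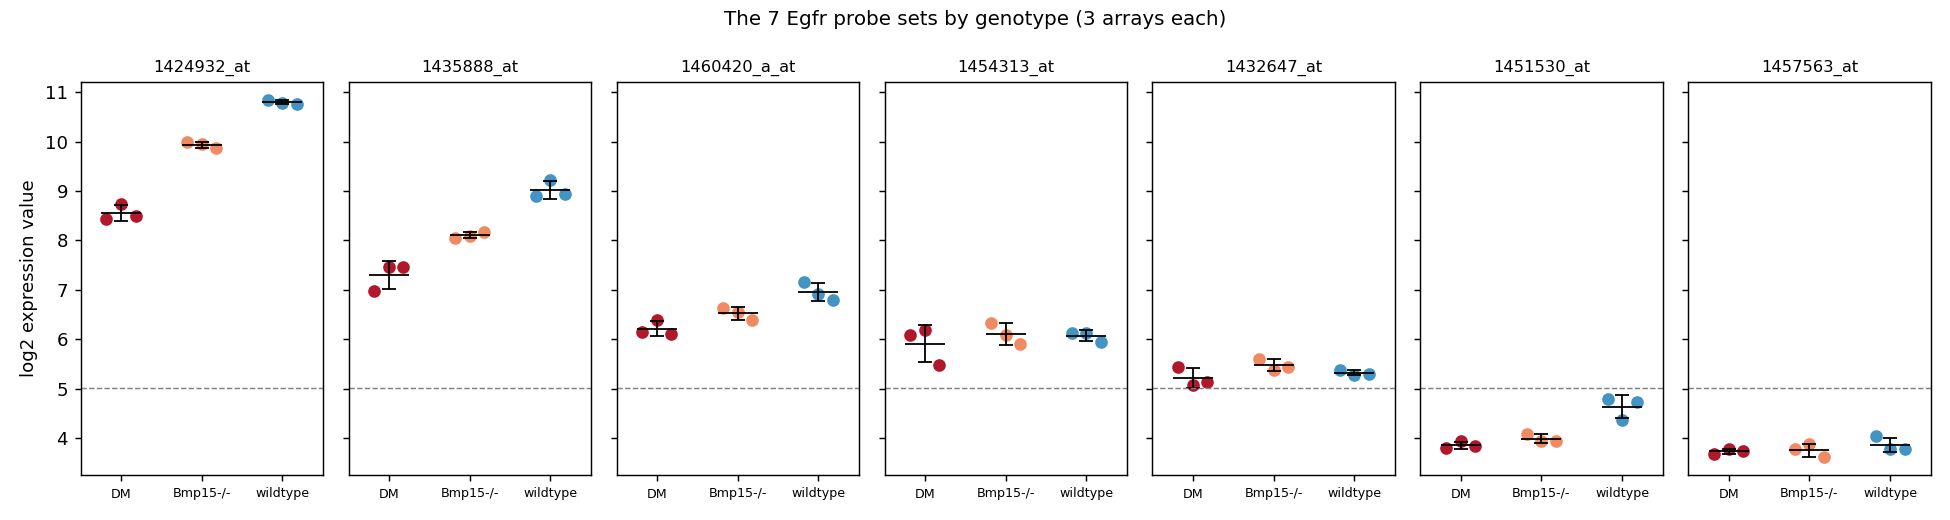
Log2 signal of each of the 7 Egfr probe sets on the 9 arrays, DM at the left, Bmp15-/- in the middle and wildtype at the right; points are samples, bars are mean ± SD (n = 3), and the grey dashed line is the mean 40th percentile. A stepwise fall from wildtype to DM is seen on 1424932_at and 1435888_at, is smaller on 1460420_a_at, and is not seen on the pair 1454313_at and 1432647_at.

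The promoters of the receptor that fell and of its partner, which was not called, are shown because the Egfr change was read as transcript level, and only these 2 of the receptors had an entry in the table used. Each sequence holds the 250 bases before the annotated start on the plus strand, from RefSeq on GRCm38.p6, at chr11:16751953-16752202 for Egfr and chr11:98412234-98412483 for Erbb2. Capitals mark the match found among 5 motifs searched on both strands: the SMAD-binding CAGAC and GGCGCC, the GC box GGGCGG, the cAMP response element TGACGTCA and the TATA box TATAAA.
Egfr: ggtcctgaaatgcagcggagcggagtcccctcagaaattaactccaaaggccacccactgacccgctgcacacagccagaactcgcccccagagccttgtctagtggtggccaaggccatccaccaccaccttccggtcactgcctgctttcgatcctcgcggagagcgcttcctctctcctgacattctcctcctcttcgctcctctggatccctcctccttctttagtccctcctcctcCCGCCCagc
Erbb2: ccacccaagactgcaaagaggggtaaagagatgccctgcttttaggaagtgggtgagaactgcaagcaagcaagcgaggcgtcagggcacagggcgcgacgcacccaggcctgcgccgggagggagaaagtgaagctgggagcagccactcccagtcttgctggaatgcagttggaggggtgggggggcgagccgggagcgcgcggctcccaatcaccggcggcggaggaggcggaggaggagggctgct
The Egfr window held 1 match, a GC box read on the minus strand as CCGCCC and beginning 9 bases before the start, and the Erbb2 window held none. Over 32851 mouse promoters of the same length, 32.7% held GGGCGG, 42.2% CAGAC, 9.59% GGCGCC, 1.55% TGACGTCA and 12.4% TATAAA. The GC content was 60.8% for Egfr and 66.0% for Erbb2, above those of 73.9% and 84.5% of promoters, whose median was 52.4%.

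Erbb2, the partner receptor without a soluble ligand of its own, was not called in any comparison. On 1424919_at its signal was 7.28, 7.21 and 7.32 in DM, 7.40, 6.89 and 7.16 in Bmp15-/-, and 7.56, 7.43 and 7.70 in wildtype cells. Every mutant value lay below the lowest wildtype value of 7.43, yet the changes of -0.29 ± 0.13 in DM (95% interval -0.58 to 0.0015; limma adjusted p = 0.127) and -0.41 ± 0.13 in Bmp15-/- (interval -0.70 to -0.12; limma adjusted p = 0.0820) did not pass the adjusted test. Between DM and Bmp15-/- cells the change was 0.12 (interval -0.18 to 0.41; limma adjusted p = 0.668). The Bmp15-/- against wildtype change was called when Bmp15-/- array 1 was left out (-0.53, limma adjusted p = 0.0392) and when arrays were weighted by their quality (-0.47, limma adjusted p = 0.0274).

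Erbb3, the neuregulin receptor with a weak kinase, went the opposite way to Egfr. On 1434606_at the signal was 7.59, 7.55 and 7.32 in DM, 7.25, 6.81 and 7.09 in Bmp15-/-, and 6.66, 6.07 and 7.13 in wildtype cells. DM arrays were above all wildtype arrays, whereas Bmp15-/- arrays overlapped with wildtype array 3. DM cells exceeded wildtype cells by 0.87 ± 0.23 (95% interval 0.34 to 1.39; limma adjusted p = 0.0223), and the rise was the 441st in size. In Bmp15-/- cells the change was 0.43 (interval -0.10 to 0.95; limma adjusted p = 0.277), and between the mutants it was 0.44 (interval -0.09 to 0.96; limma adjusted p = 0.340).

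The wildtype spread of Erbb3 was wide, 6.62 ± 0.53 against 7.49 ± 0.15 in DM and 7.05 ± 0.22 in Bmp15-/- cells (SD, n = 3 each), and the call depended on single arrays. It was lost without DM array 1 (0.81, limma adjusted p = 0.0675), without wildtype array 1 (0.88, limma adjusted p = 0.0576) and without wildtype array 2 (0.59, limma adjusted p = 0.0513). Wildtype array 2, the lowest for Erbb3, had the highest oocyte marker median of the 9 arrays, at 6.36, and with that median as a covariate the change was 0.62 (limma adjusted p = 0.0718). Averaged over its probe sets, the DM change was 0.41 (limma adjusted p = 0.0497). The second Erbb3 probe set, 1452482_at, was under the filter and read 4.49, 4.30 and 4.63 in DM, 4.92, 4.54 and 4.50 in Bmp15-/-, and 4.67, 4.49 and 4.40 in wildtype cells, with overlapping genotypes.

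Btc, a ligand of both EGFR and ERBB4, was the only ligand among the 6 genes above the filter, and its levels overlapped between genotypes. On 1421161_at it gave 6.39, 6.22 and 6.48 in DM, 6.17, 6.58 and 6.39 in Bmp15-/-, and 6.43, 6.45 and 6.39 in wildtype cells. The change was -0.06 ± 0.12 in DM (95% interval -0.32 to 0.20; limma adjusted p = 0.737) and -0.04 in Bmp15-/- (interval -0.30 to 0.22; limma adjusted p = 0.844) against wildtype, and -0.02 between the mutants (interval -0.28 to 0.24; limma adjusted p = 0.960). Its other probe set, 1435541_at, read 5.62, 6.06 and 5.96 in DM, 6.35, 6.03 and 6.03 in Bmp15-/-, and 6.17, 5.98 and 6.03 in wildtype cells, with a DM against wildtype change of -0.18 (limma adjusted p = 0.387).

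Ereg, the epiregulin gene, was dim. Probe set 1419431_at gave 4.75, 3.66 and 3.69 in DM, 5.58, 4.47 and 4.16 in Bmp15-/-, and 3.43, 3.61 and 4.28 in wildtype cells. Only Bmp15-/- array 1 was above the 40th percentile of its array, which lay between 4.97 and 5.05, so the other 8 arrays do not separate signal from background. With the filter lifted, the Bmp15-/- against wildtype change was 0.96 ± 0.40 (limma adjusted p = 0.196), and that of DM against wildtype was 0.26 (limma adjusted p = 0.697).

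The other ErbB receptor and the EGF-like and neuregulin ligands outside the 6 genes comprised 9 genes, of which 4 passed the filter. Against wildtype, 1 of the 4 changed in DM cells and none in Bmp15-/- cells, near the 28.1% and 9.07% of all genes called. The median changes were 0.05 and 0.12. The 1 gene called was Hbegf, heparin-binding EGF-like growth factor, a ligand of EGFR and ERBB4. Its log2 signal was 9.27, 8.61 and 8.09 in DM, 7.66, 7.31 and 7.75 in Bmp15-/-, and 6.83, 6.63 and 6.88 in wildtype cells. The 3 ranges did not overlap, and DM was highest, the reverse of the Egfr order. The change was 1.87 ± 0.25 in DM, or 3.67-fold (limma adjusted p = 0.000839), 0.79 in Bmp15-/- (limma adjusted p = 0.0812) and 1.08 between the mutants (limma adjusted p = 0.0528). The Bmp15-/- against wildtype change was called with only these genotypes in the fit (limma adjusted p = 0.0118), with array weights (0.0365) and without DM array 1 (0.0244) or 3 (0.0296), whose removal leaves the change itself at 0.79.

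The ligands Egf, Tgfa (transforming growth factor alpha) and Nrg2 (neuregulin 2) were measured and not called. Their DM against wildtype changes were -0.10, 0.07 and 0.03 (limma adjusted p = 0.663, 0.680 and 0.845), and those of Bmp15-/- against wildtype were 0.00, -0.26 and 0.23 (limma adjusted p = 0.997, 0.185 and 0.140). Erbb4, Epgn, Nrg1, Nrg3 and Nrg4 were dim on all 9 arrays, between 3.63 and 4.77.

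Release of the ligands depends on sheddases and their helpers, a list of which 6 genes were tested. In DM against wildtype cells 1 rose and 1 fell, and in Bmp15-/- cells none was called, with medians of 0.03 and 0.02, beside 28.1% and 9.07% of all genes called in either direction. Adam17, the main sheddase of amphiregulin and epiregulin, gave 11.04, 10.84 and 10.70 in DM, against 11.41, 11.19 and 11.22 in wildtype cells, a change of -0.41 (limma adjusted p = 0.0177). Timp3, an inhibitor of ADAM17, gave 7.62, 7.01 and 6.89 in DM, against 6.67, 6.23 and 6.35 in wildtype cells, a change of 0.76 (limma adjusted p = 0.0259). DM arrays lay below all wildtype arrays for Adam17 and above them for Timp3 on these probe sets. The Adam17 call was lost without DM array 3 (limma adjusted p = 0.0522) or wildtype array 1 (0.0690), and the Timp3 call without DM array 1 (0.0707), wildtype array 2 (0.0896) or wildtype array 3 (0.0764). Of the 2 other tested Adam17 probe sets, 1 had the opposite sign in DM against wildtype, and neither was called. The 1 other tested Timp3 probe set had the same sign, without a call.

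Of 18 listed adaptors and RAS-ERK components below the receptor, 13 were tested, and the others were not analysed here. Of the 13, 1 rose and 2 fell in DM cells, and the counts were the same in Bmp15-/- cells, each against wildtype: 3 of 13 in either mutant, where 28.1% of all genes were called in DM and 9.07% in Bmp15-/- cells. Gab2, a docking adaptor for SHP2 and PI3K, gave 10.58, 10.79 and 10.23 in DM, 10.13, 10.02 and 10.29 in Bmp15-/-, and 9.12, 9.03 and 9.41 in wildtype cells. Both mutants were above wildtype, by 1.35 (limma adjusted p = 0.000389) and 0.96 (limma adjusted p = 0.00746). Ksr1, the scaffold that holds RAF, MEK and ERK together, gave 5.19, 5.83 and 5.83 in DM, 6.58, 6.08 and 6.39 in Bmp15-/-, and 7.48, 7.14 and 7.32 in wildtype cells.

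Ksr1 was therefore lower in each mutant without overlap, by -1.70 in DM (limma adjusted p = 0.000353) and -0.96 in Bmp15-/- (limma adjusted p = 0.0177), and the Bmp15-/- call was lost without Bmp15-/- array 2 or 3 or wildtype array 1 or 3 (limma adjusted p between 0.0574 and 0.0641). The other tested Ksr1 probe set had the opposite sign in DM against wildtype, without a call, and averaging the probe sets reduced the change to -0.55 in DM (limma adjusted p = 0.00118) and -0.35 in Bmp15-/- (limma adjusted p = 0.0284). Gab1, another adaptor of the list, changed by -0.31 in DM (limma adjusted p = 0.0260) and -0.33 in Bmp15-/- (limma adjusted p = 0.0468). The Gab1 call in DM cells was lost without DM array 3 (0.0681), wildtype array 1 (0.0959) or wildtype array 3 (0.0744). In Bmp15-/- cells it was lost on leaving out each array in turn except DM arrays 2 and 3, and in both mutants after quantile normalization (limma adjusted p = 0.131 and 0.146). The median change of the 13 genes was -0.19 in either mutant.

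Among 10 tested PI3K and AKT components, 2 rose and 1 fell in DM cells and 1 rose in Bmp15-/- cells, each against wildtype, with medians of -0.08 and -0.12. These are 3 of 10 in DM and 1 of 10 in Bmp15-/- cells, near the 28.1% and 9.07% of all genes. Pik3r1, the regulatory subunit of PI3K, gave 12.43, 12.76 and 12.45 in DM, 11.74, 11.77 and 11.90 in Bmp15-/-, and 11.35, 11.29 and 10.91 in wildtype cells. The genotypes stood in 3 separate tiers, with changes of 1.36 in DM (limma adjusted p = 0.000190) and 0.62 in Bmp15-/- (limma adjusted p = 0.0242) against wildtype and of 0.74 between the mutants (limma adjusted p = 0.0235). The Bmp15-/- call was lost without Bmp15-/- array 2 (limma adjusted p = 0.0620) or 3 (0.0908) or wildtype array 2 (0.0567) or 3 (0.0685), and the call between the mutants without Bmp15-/- array 1 (0.0818) or 2 (0.0937). Rictor, a subunit of the kinase complex mTORC2 that acts on AKT, rose by 0.61 in DM cells (limma adjusted p = 0.00479), a call lost when its probe sets were averaged (0.24, limma adjusted p = 0.183). Pik3cb, the catalytic beta subunit, changed by -0.44 (limma adjusted p = 0.0379) but lost its call on leaving out any 1 array other than DM array 1 or wildtype array 2.

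A list of genes taken here as negative regulators of the receptor, a role not tested in these data, had 14 tested genes. Against wildtype, 2 rose and 2 fell in DM cells and 1 rose in Bmp15-/- cells, with medians of -0.05 and -0.02. These are 4 of 14 in DM and 1 of 14 in Bmp15-/- cells, near the 28.1% and 9.07% of all genes. Tns3, tensin 3, a focal adhesion protein, gave 8.34, 7.93 and 8.32 in DM, 7.15, 6.84 and 7.41 in Bmp15-/-, and 7.34, 6.92 and 6.78 in wildtype cells. Only the DM arrays were high, by 1.18 against wildtype (limma adjusted p = 0.00206), while Bmp15-/- and wildtype arrays overlapped (0.12, limma adjusted p = 0.740). DM also exceeded Bmp15-/- by 1.06 (limma adjusted p = 0.0223), a call lost without DM array 1 (0.0631) or 3 (0.0594) or Bmp15-/- array 1 (0.0735) or 2 (0.0834).

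Errfi1 (MIG6), which binds and inhibits the EGFR kinase, gave 11.86, 11.40 and 11.94 in DM, 11.77, 11.64 and 11.66 in Bmp15-/-, and 10.94, 10.65 and 11.32 in wildtype cells. The mutant arrays lay above the wildtype arrays, by 0.76 (limma adjusted p = 0.0134) and 0.72 (limma adjusted p = 0.0403). In Bmp15-/- cells the call was lost without DM array 1, any of the Bmp15-/- arrays or wildtype array 1 or 2 (limma adjusted p between 0.0507 and 0.126). Cbl, the ubiquitin ligase that marks active EGFR for degradation, changed by -0.49 in DM cells (limma adjusted p = 0.0218), a call lost without DM array 1 or any of the wildtype arrays (limma adjusted p between 0.0544 and 0.0659). Lrig1, a membrane protein that promotes ErbB receptor degradation, changed by -0.60 in DM cells on its brightest probe set (limma adjusted p = 0.00863), but of its 2 other probe sets 1 was called lower and 1 higher.

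Feedback inhibitors of ERK, which in many cells are induced by ERK activity itself, were tested for 9 genes. In DM cells 3 rose and 0 fell against wildtype, and in Bmp15-/- cells 2 rose and 0 fell, with median changes of 0.48 and 0.25. These are 3 of 9 in DM and 2 of 9 in Bmp15-/- cells, beside 28.1% and 9.07% of all genes called in either direction. The shares of all genes called higher were 9.95% in DM and 3.29% in Bmp15-/- cells. Dusp6, an ERK phosphatase, gave 10.24, 9.59 and 10.34 in DM, 10.04, 9.60 and 9.63 in Bmp15-/-, and 8.63, 6.86 and 8.35 in wildtype cells. The mutant arrays were all higher than the wildtype arrays, and DM and Bmp15-/- arrays overlapped. The changes were 2.11 in DM (limma adjusted p = 0.00482) and 1.81 in Bmp15-/- (limma adjusted p = 0.0262), and the Bmp15-/- call was lost without Bmp15-/- array 1 (0.0716), 2 (0.0610) or 3 (0.0755).

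Spry2 (sprouty 2), a RAS pathway inhibitor, rose by 0.73 in DM (limma adjusted p = 0.00430) and 0.69 in Bmp15-/- cells (limma adjusted p = 0.0179). The second call was lost without Bmp15-/- array 1 (0.0525) or 3 (0.0561) or wildtype array 1 (0.0577) or 2 (0.0711). Dusp5, a nuclear ERK phosphatase, rose by 0.91 in DM cells (limma adjusted p = 0.00939) and differed by 0.63 in Bmp15-/- cells (limma adjusted p = 0.0833). The receptor transcript was lower, and the called ERK feedback transcripts were higher, in the same samples. The other 6 tested genes of this list in DM cells and 7 in Bmp15-/- cells were not called against wildtype. A relation between the receptor and feedback transcripts was not tested.

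**Figure D3:**
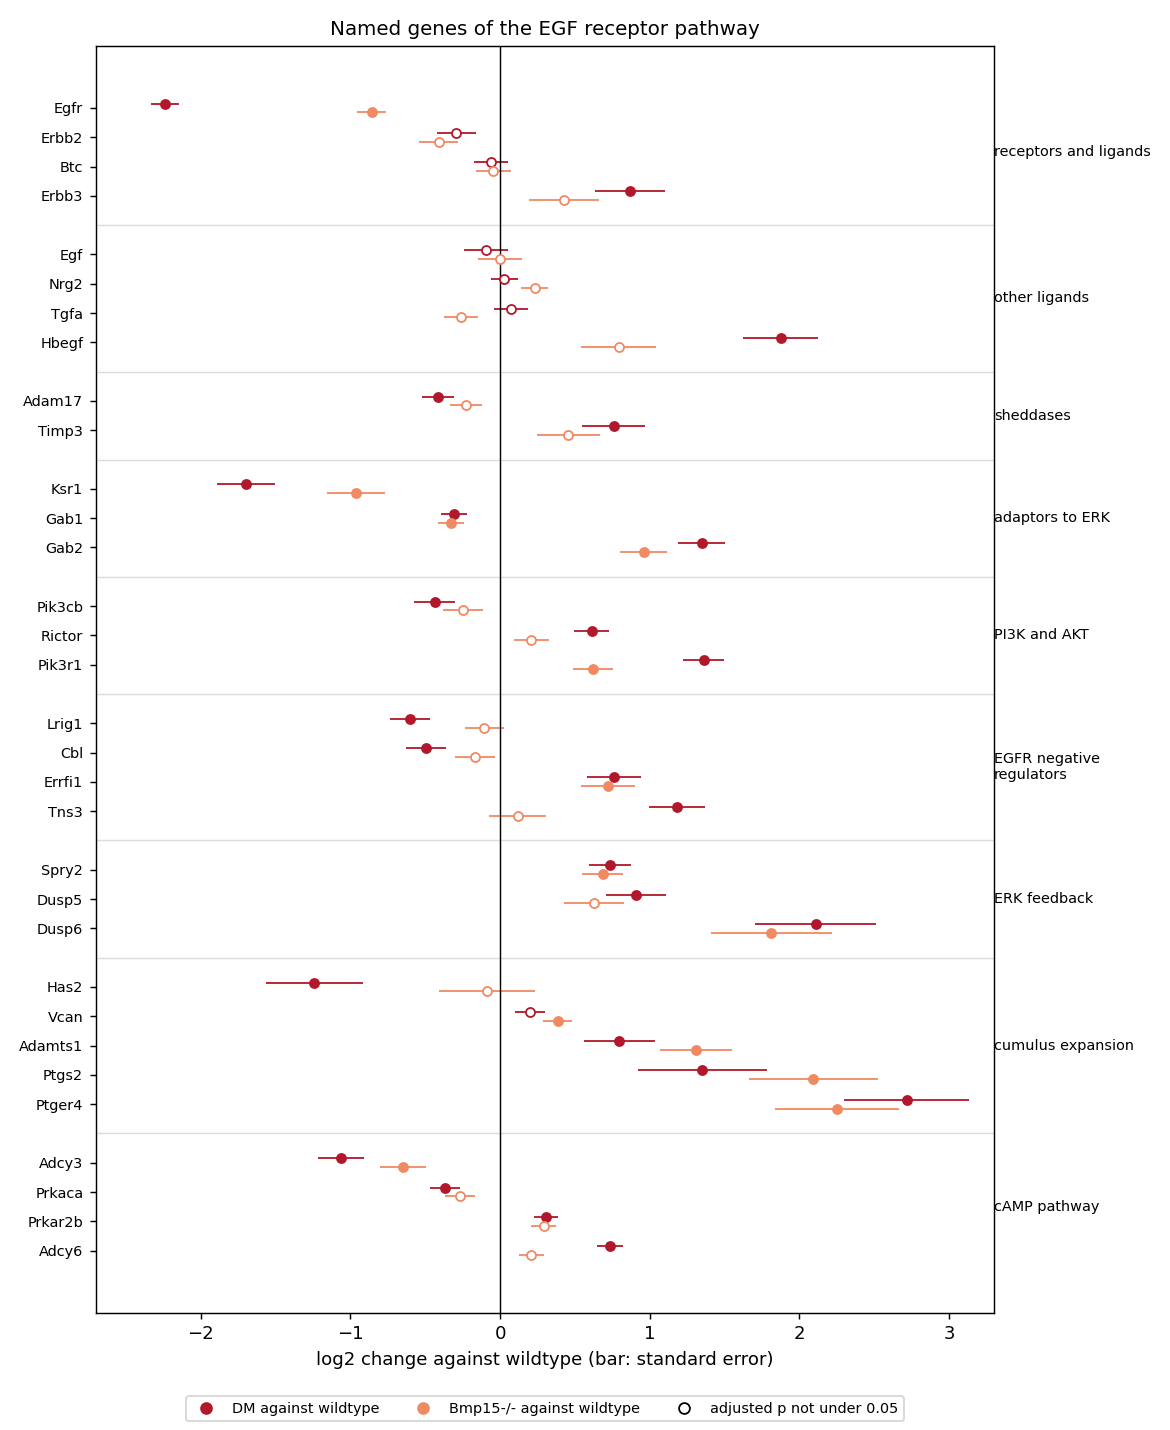
Log2 change against wildtype of the named genes of the ErbB pathway, with DM above Bmp15-/- for each gene; filled symbols passed the test (limma, adjusted p below 0.05), open symbols did not, and bars are SE. Egfr and Ksr1 lie left of 0 in both mutants, and Gab2, Pik3r1, Dusp6 and Spry2 lie right of 0 in both.

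Genes of cumulus expansion, which EGFR signalling induces after the ovulatory signal, were tested for 7 of 11 listed; Ptx3, Cd44, Pgr and Il6 were dim. In DM cells 3 rose and 1 fell against wildtype, and in Bmp15-/- cells 4 rose, with medians of 0.63 and 1.17, where 28.1% and 9.07% of all genes were called in either direction. Ptger4, the prostaglandin E2 receptor EP4, gave 8.53, 7.97 and 8.44 in DM, 8.31, 7.93 and 7.31 in Bmp15-/-, and 5.49, 4.74 and 6.56 in wildtype cells, with changes of 2.72 (limma adjusted p = 0.00161) and 2.25 (limma adjusted p = 0.0128). Each mutant array was above every wildtype array. Wildtype array 2 was below the 40th percentile of its array, and with values floored there the changes were 2.62 in DM (limma adjusted p = 0.00122) and 2.16 in Bmp15-/- (limma adjusted p = 0.0105). Ptgs2, the enzyme of prostaglandin synthesis, gave 9.34, 8.13 and 8.07 in DM, 9.65, 8.72 and 9.39 in Bmp15-/-, and 6.95, 6.56 and 7.98 in wildtype cells.

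The Ptgs2 change was 1.35 in DM (limma adjusted p = 0.0424) and 2.09 in Bmp15-/- (limma adjusted p = 0.0196), and no mutant array fell below the wildtype maximum of 7.98. Its DM call was lost without DM array 1, Bmp15-/- array 1 or 3, or wildtype array 1 or 2 (limma adjusted p between 0.0508 and 0.143), and its Bmp15-/- call without Bmp15-/- array 1 or 3 or wildtype array 1 or 2 (limma adjusted p between 0.0575 and 0.0735). Adamts1, a protease that cleaves versican, rose by 0.80 in DM (limma adjusted p = 0.0335) and 1.31 in Bmp15-/- (limma adjusted p = 0.0123). The first of these calls was lost without DM array 1 (0.0889) or wildtype array 2 (0.112), and the other without Bmp15-/- array 3 (0.0526). Vcan, versican, a matrix proteoglycan, differed by 0.20 in DM (limma adjusted p = 0.157) and by 0.39 in Bmp15-/- cells (limma adjusted p = 0.0407), the Bmp15-/- change being not called on leaving out any 1 Bmp15-/- or wildtype array (limma adjusted p between 0.0616 and 0.124).

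Has2, the hyaluronan synthase that builds the expanded matrix, differed in pattern from these. It gave 5.17, 5.11 and 4.28 in DM, 6.14, 6.48 and 5.41 in Bmp15-/-, and 6.43, 6.20 and 5.65 in wildtype cells. DM arrays lay below all wildtype arrays and Bmp15-/- arrays overlapped with them, with changes of -1.24 ± 0.32 in DM (limma adjusted p = 0.0185) and -0.09 in Bmp15-/- (limma adjusted p = 0.891). The DM call was lost without DM array 3 (-0.95, limma adjusted p = 0.0568), wildtype array 1 (0.0703) or wildtype array 2 (0.0606). DM array 3 was below the 40th percentile of its array and the other DM arrays just above it, and with values floored there the DM change was -0.98 (limma adjusted p = 0.0216).

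Gonadotropin receptors and the cAMP pathway, which act upstream of the EGF-like ligands, had 11 tested genes, with 2 higher and 2 lower in DM and 1 lower in Bmp15-/- cells, each against wildtype, and medians of -0.03 and -0.12, beside 28.1% and 9.07% of all genes called. Adcy6, an adenylyl cyclase, gave 7.25, 7.35 and 7.28 in DM, 6.78, 6.64 and 6.88 in Bmp15-/-, and 6.59, 6.55 and 6.53 in wildtype cells. It was higher in DM by 0.73 (limma adjusted p = 0.000401), and by 0.52 against Bmp15-/- (limma adjusted p = 0.0146), the second call being lost without Bmp15-/- array 1 (0.0543) or 2 (0.0631). Adcy3, another adenylyl cyclase, gave 7.42, 8.06 and 7.56 in DM, 8.12, 8.08 and 8.09 in Bmp15-/-, and 8.87, 8.77 and 8.60 in wildtype cells.

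Adcy3 was lower by -1.06 in DM (limma adjusted p = 0.00120) and by -0.65 in Bmp15-/- (limma adjusted p = 0.0325), the Bmp15-/- call being lost on leaving out any 1 Bmp15-/- or wildtype array (limma adjusted p between 0.0596 and 0.107). The regulatory subunit Prkar2b and the catalytic subunit Prkaca of the cAMP-dependent kinase changed by 0.31 and -0.37 in DM cells (limma adjusted p = 0.0219 and 0.0244). The Prkar2b call was lost without DM array 1 or 3 or wildtype array 1 or 2 (limma adjusted p between 0.0540 and 0.0761), and the Prkaca call without DM array 1 or any 1 wildtype array (limma adjusted p between 0.0522 and 0.0838).

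A pair of processing choices ended several of these DM against wildtype calls. With the oocyte marker median as a covariate, Adamts1, Errfi1, Has2, Ptgs2, Timp3, Cbl, Prkaca and Prkar2b were no longer called (limma adjusted p between 0.0515 and 0.131). With all probe sets of a gene averaged, Adam17, Cbl, Lrig1 and Rictor were no longer called (limma adjusted p between 0.0758 and 0.183), nor were Errfi1, Pik3r1 and Vcan in Bmp15-/- cells (between 0.0857 and 0.237) or Pik3r1 between the mutants (0.39, limma adjusted p = 0.0850). Averaging kept the DM calls of Gab2 (0.82), Pik3r1 (0.69), Tns3 (0.73), Spry2 (0.47), Ptger4 (1.38) and Ptgs2 (0.75) at these smaller changes. The DM call of Ptgs2 was still lost in 9 of 21 alternatives, of which 5 left out an array and 4 did not. That of Adamts1 was lost in 4 of 21 and that of Pik3cb in 10 of 20.

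The genes whose signal followed Egfr most closely over the 9 arrays were Ppa1 (inorganic pyrophosphatase, r = 0.994), Chst11 (a chondroitin 4-sulfotransferase, r = 0.994) and Psma4 (a proteasome subunit, r = 0.993). These correlations describe 9 arrays in 3 genotypes that differ in level, and carry no test. Chst11 gave 9.97, 10.09 and 10.03 in DM, 10.85, 10.89 and 10.88 in Bmp15-/-, and 11.47, 11.63 and 11.46 in wildtype cells, the same 3 tiers as Egfr. For Erbb3 the closest were the zinc finger gene Zfp644 (r = 0.977), Pbxip1 (r = 0.956) and the ABC transporter gene Abca5 (r = 0.943).

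**Figure D4:**
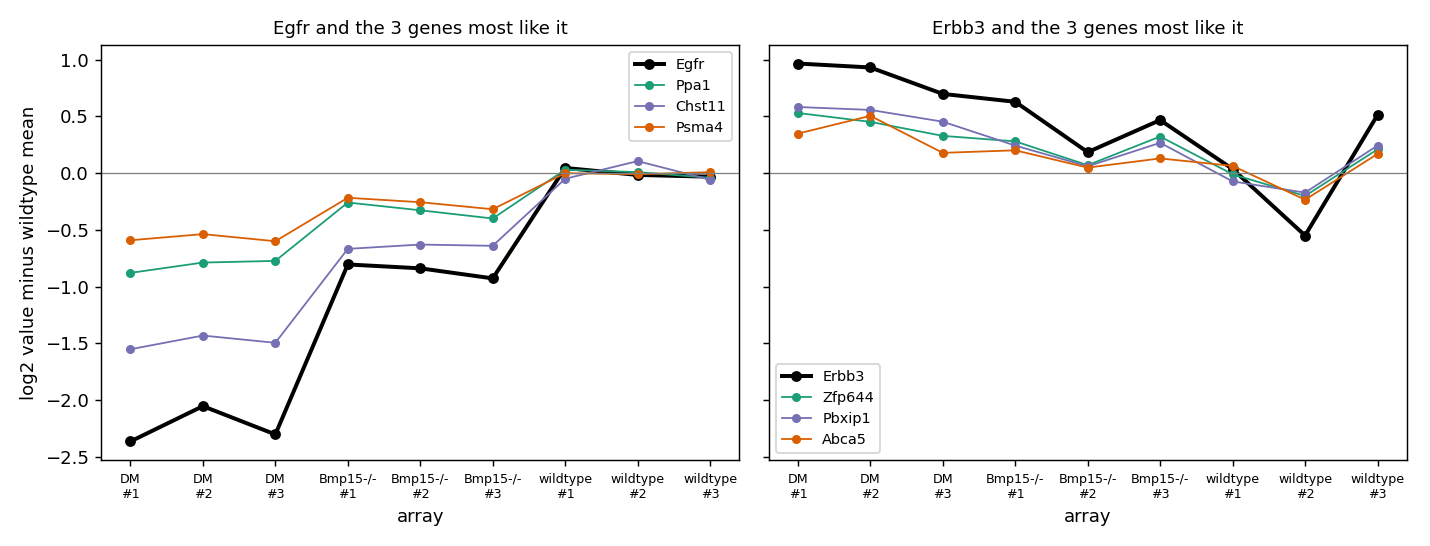
Log2 signal minus the wildtype mean of the same gene, on the 9 arrays, of Egfr and Erbb3 with the 3 genes most like each by Pearson r over the arrays, DM at the left, Bmp15-/- in the middle and wildtype at the right of each panel. The genes most like Egfr step up from DM to wildtype arrays with little spread within a genotype, whereas wildtype array 2 is the lowest point for Erbb3 and for each of the 3 genes most like it.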

How the data were processed

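Cumulus cell RNA of 9 samples was read on Affymetrix mouse genome arrays. The deposited values are log2 signals per probe set, made by the authors with RMA in the affy package, per the submitters' processing notes, which give no version here; they were used as deposited. RMA quantile-normalises arrays, so a difference is relative to the array as a whole. Probe sets were named from the platform annotation: 34958 carried 1 gene, 932 several and 9211 none, and the last 2 kinds were left out. A gene took its brightest probe set and was tested if at least 3 of 9 arrays exceeded the 40th percentile of their array. limma 3.58.1 in R 4.3.3 fitted genotype on all 9 arrays (6 residual degrees of freedom), and the pipeline was tested on simulated data. The samples are described as independent; p-values measure the spread between these pools. Named genes outside the 6 were up to 4 called genes of each pathway list with the smallest p in each comparison with wildtype, all other ErbB family genes, Bmp15 and Gdf9, and the 3 genes most like each called receptor. The 6 genes and all lists were chosen with earlier results of these data known. Samples with the same number had residuals correlated at -0.08 to 0.26, so the numbers were not taken as pairs. Alternatives covered the filter, probe set rule, normalization, fit and each left-out array.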

Additional observations from a re-analysis of the deposited data

How the results depend on the processing

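Over 21 alternatives, Egfr kept its direction and call in all 3 comparisons: -2.33 to -0.84 for DM against wildtype (limma adjusted p 1.21e-06 to 0.00014), -0.88 to -0.40 for Bmp15-/- against wildtype (0.000283 to 0.0193) and -1.48 to -0.44 for DM against Bmp15-/- (0.000311 to 0.0239). A fit with the replicate number as a block changed no call of the 6 genes (Egfr adjusted p = 7.27e-05 for DM against wildtype), and called 3587, 1084 and 360 genes in DM against wildtype, Bmp15-/- against wildtype and DM against Bmp15-/-, where the fit without it called 3780, 1219 and 437. With only the 2 genotypes compared, 1894 genes were called in Bmp15-/- against wildtype and 117 in DM against Bmp15-/-. Array weights gave 2350 genes in Bmp15-/- against wildtype and 2 of the family genes, Erbb2 being added at -0.47 (limma adjusted p = 0.0274). The oocyte marker median as a covariate gave 241 genes in DM against Bmp15-/-, and left 1 family gene in DM against wildtype, Erbb3 being at 0.62 (limma adjusted p = 0.0718), and the fit of all 27991 probe sets called 6785. The last count is over 27991 probe sets rather than 13447 genes, and the cause of these shifts was not tested.

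With 1 array left out, the genes called ranged over 445 to 1663 in Bmp15-/- against wildtype, 2648 to 4157 in DM against wildtype and 105 to 922 in DM against Bmp15-/-, and 1 to 2 family genes were called in each comparison with wildtype. The Erbb3 change in DM ranged over 0.59 to 1.12, and that of Erbb2 over -0.53 to -0.28 in Bmp15-/- against wildtype and -0.012 to 0.24 in DM against Bmp15-/-. Quantile normalization changed the balance of calls: 520 of 1110 genes called in Bmp15-/- against wildtype were lower (46.8%, against 63.7% as deposited), and 1858 of 3596 in DM against wildtype (51.7%, against 64.6%).

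Changes of sign touched small, uncalled differences. Btc in Bmp15-/- against wildtype was 0.016 with probe sets averaged and 0.0054 after quantile normalization (-0.15 to 0.061 with 1 array left out), in DM against wildtype 0.0012 after quantile normalization (-0.12 to 0.013), and in DM against Bmp15-/- 0.020 with the oocyte covariate (-0.12 to 0.085). Egf was -0.0084 in Bmp15-/- against wildtype after quantile normalization (-0.13 to 0.13), and -0.18 to 0.036 in DM with 1 array left out. Nrg2 was -0.14 in Bmp15-/- and -0.27 in DM with probe sets averaged, and -0.0076 in DM with the oocyte covariate (-0.044 to 0.078), and Tgfa was -0.089 in DM with probe sets averaged (-0.027 to 0.14).

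Of the calls of other named genes, 15 of 29 in DM against wildtype, 3 of 14 in Bmp15-/- against wildtype and 1 of 5 in DM against Bmp15-/- held under every alternative, and none of these calls reversed. The number of arrays, 3 a genotype, limits the precision, and probe sets near the 40th percentile of their array (4.97 to 5.05) do not separate signal from background.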
